A study of Mus musculus with 21 samples.

Results

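The genes described are those of protein kinase A (PKA): the catalytic subunits Prkaca and Prkacb, the regulatory subunits Prkar1a, Prkar1b, Prkar2a and Prkar2b, and the endogenous inhibitors Pkia, Pkib and Pkig. They were taken by gene name from the deposited count table, and all 9 were found among its 23713 genes. RNA was sequenced in bulk from keratinocytes of mouse tail skin in 3 models of basal cell carcinoma (BCC), a skin tumour driven by Hedgehog signalling. Each model, named SmoM2, Gnas-eKO or PKI, had 4 libraries from tumour-bearing mice (BCC) and 3 labelled as its tumour-free controls (Con), 21 in all. The question is how the PKA genes differ between tumour-bearing and control epidermis in each model, and whether that difference is the same in all models.

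SmoM2 is the name of an activated form of Smoothened, the membrane protein that switches the Hedgehog pathway on. Gnas-eKO stands for a knockout of Gnas, which encodes the stimulatory G protein that raises cAMP. PKI is the name of a peptide inhibitor of PKA, but the labels do not describe the construct. Mice were sampled 29 days after induction in SmoM2 (batch A), 42 days in Gnas-eKO (batch B) and 57 days in PKI (batch C), so model, day and batch cannot be told apart. Within a model, BCC and Con share the batch. The labels give no strain, age, sex, promoter or Cre line, nor the alleles that the Con mice carry. In SmoM2 the animal names of BCC libraries carry another prefix in the table header than those of Con, and its meaning is not given in the labels. The SmoM2 Con names share their prefix with all Gnas-eKO animals, Con and BCC alike. Within SmoM2 the prefix and the tumour cannot be told apart.

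PKA is a tetramer of a regulatory dimer and a pair of catalytic subunits. Binding of cAMP to the regulatory subunits frees the catalytic subunits, which phosphorylate their targets, and the PKI peptides bind and block free catalytic subunits. Type I holoenzymes contain Prkar1a or Prkar1b and are largely soluble, while type II holoenzymes contain Prkar2a or Prkar2b and are mostly tethered by A-kinase anchoring proteins. In Hedgehog signalling PKA phosphorylates Gli transcription factors and so restrains the pathway.

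Promoter windows are shown for 4 of the 7 members that changed in at least 1 model, picked after their values were seen, because a cAMP response element, the site bound by CREB-type factors downstream of PKA, is a feature that can be read from sequence. The windows run from 250 bases before to 50 after an annotated start, are written 5′ to 3′ on the gene's strand, and come from RefSeq on GRCm38.p6. Capitals mark TGACG, or TGACGTCA where it is complete, read on either strand. For the genes with several starts, the window shown was picked after the scan, as one that holds the motif where any did. They are Prkacb at chr3:146812897-146813196 (minus strand), Prkar1a at chr11:109650699-109650998 (plus), Prkar1b at chr5:139149952-139150251 (minus) and Prkar2b at chr12:32061228-32061527 (minus).
Prkacb: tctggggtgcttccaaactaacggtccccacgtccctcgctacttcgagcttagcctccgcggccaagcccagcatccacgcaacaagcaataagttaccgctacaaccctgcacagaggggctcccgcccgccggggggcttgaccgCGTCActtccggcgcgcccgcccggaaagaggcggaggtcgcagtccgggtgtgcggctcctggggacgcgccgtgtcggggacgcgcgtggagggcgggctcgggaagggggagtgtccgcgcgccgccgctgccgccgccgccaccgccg
Prkar1a: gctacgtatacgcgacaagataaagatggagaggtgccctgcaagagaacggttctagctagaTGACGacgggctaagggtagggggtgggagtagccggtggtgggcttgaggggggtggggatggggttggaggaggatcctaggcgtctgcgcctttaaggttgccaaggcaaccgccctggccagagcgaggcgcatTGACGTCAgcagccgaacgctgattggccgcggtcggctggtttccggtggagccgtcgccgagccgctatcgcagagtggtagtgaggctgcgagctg
Prkar1b: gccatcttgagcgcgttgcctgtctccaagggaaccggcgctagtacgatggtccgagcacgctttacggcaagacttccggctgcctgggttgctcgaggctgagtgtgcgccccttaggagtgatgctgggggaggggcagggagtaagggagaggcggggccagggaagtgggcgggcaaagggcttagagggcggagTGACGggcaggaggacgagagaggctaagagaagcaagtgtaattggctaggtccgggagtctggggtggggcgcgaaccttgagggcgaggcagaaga
Prkar2b: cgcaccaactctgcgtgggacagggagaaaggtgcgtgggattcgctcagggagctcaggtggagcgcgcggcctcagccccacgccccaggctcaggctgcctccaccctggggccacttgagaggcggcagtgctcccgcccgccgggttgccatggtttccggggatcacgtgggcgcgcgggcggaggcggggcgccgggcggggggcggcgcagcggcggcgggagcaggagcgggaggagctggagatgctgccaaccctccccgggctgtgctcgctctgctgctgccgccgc
In the Prkar1a window the complete element lies at -49 relative to the start, in the Prkar1b window a TGACG lies at -49, and in the Prkacb window one lies at -102. Neither of the 2 Prkar2b windows holds the motif. RefSeq windows were found for 8 of the 9 members, and Pkia was not matched. Over the 24 windows of these members, 8 hold TGACG (which also counts windows with the complete element) and 2, both of Prkar1a, hold TGACGTCA, beside 20.8% and 1.79% of all 32851 mouse windows. The 2 Prkar1a windows overlap and hold the same single element, so these counts of windows are not counts of separate sites. The Gli motif TGGGTGGTC, searched on both strands, is in 0 of the 24 windows and in 0.253% of all windows. These matches describe letters in a window and show no binding.

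Library totals were 16645858 to 22251132 counts, at which 3 counts correspond to at most 0.19 CPM (library-scaled counts, on a scale that makes libraries of different depth comparable). The targeted gene followed its label: Gnas was 175 ± 2.81 CPM (SD, n = 3) in Gnas-eKO Con and 80 ± 27.9 (n = 4) in Gnas-eKO BCC. All 10 keratinocyte markers were detected in every group, at a summed 34500 to 80400 CPM, and their levels by group are given with the other markers. On the first principal component (30.2% of variance) Gnas-eKO BCC replicate 2 lay at -20.5, between the Con libraries (-57.1 to -40.3) and the other BCC libraries (32.4 to 59.4), and Gnas-eKO BCC replicate 3 had 8.53% mitochondrial counts against 1.98 to 3.51% in the other 20. Pkia cannot check the PKI label, because the construct is not described. Since the libraries are bulk samples, fewer cells of a type and less RNA per cell cannot be told apart in any value below.

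**Figure D1:**
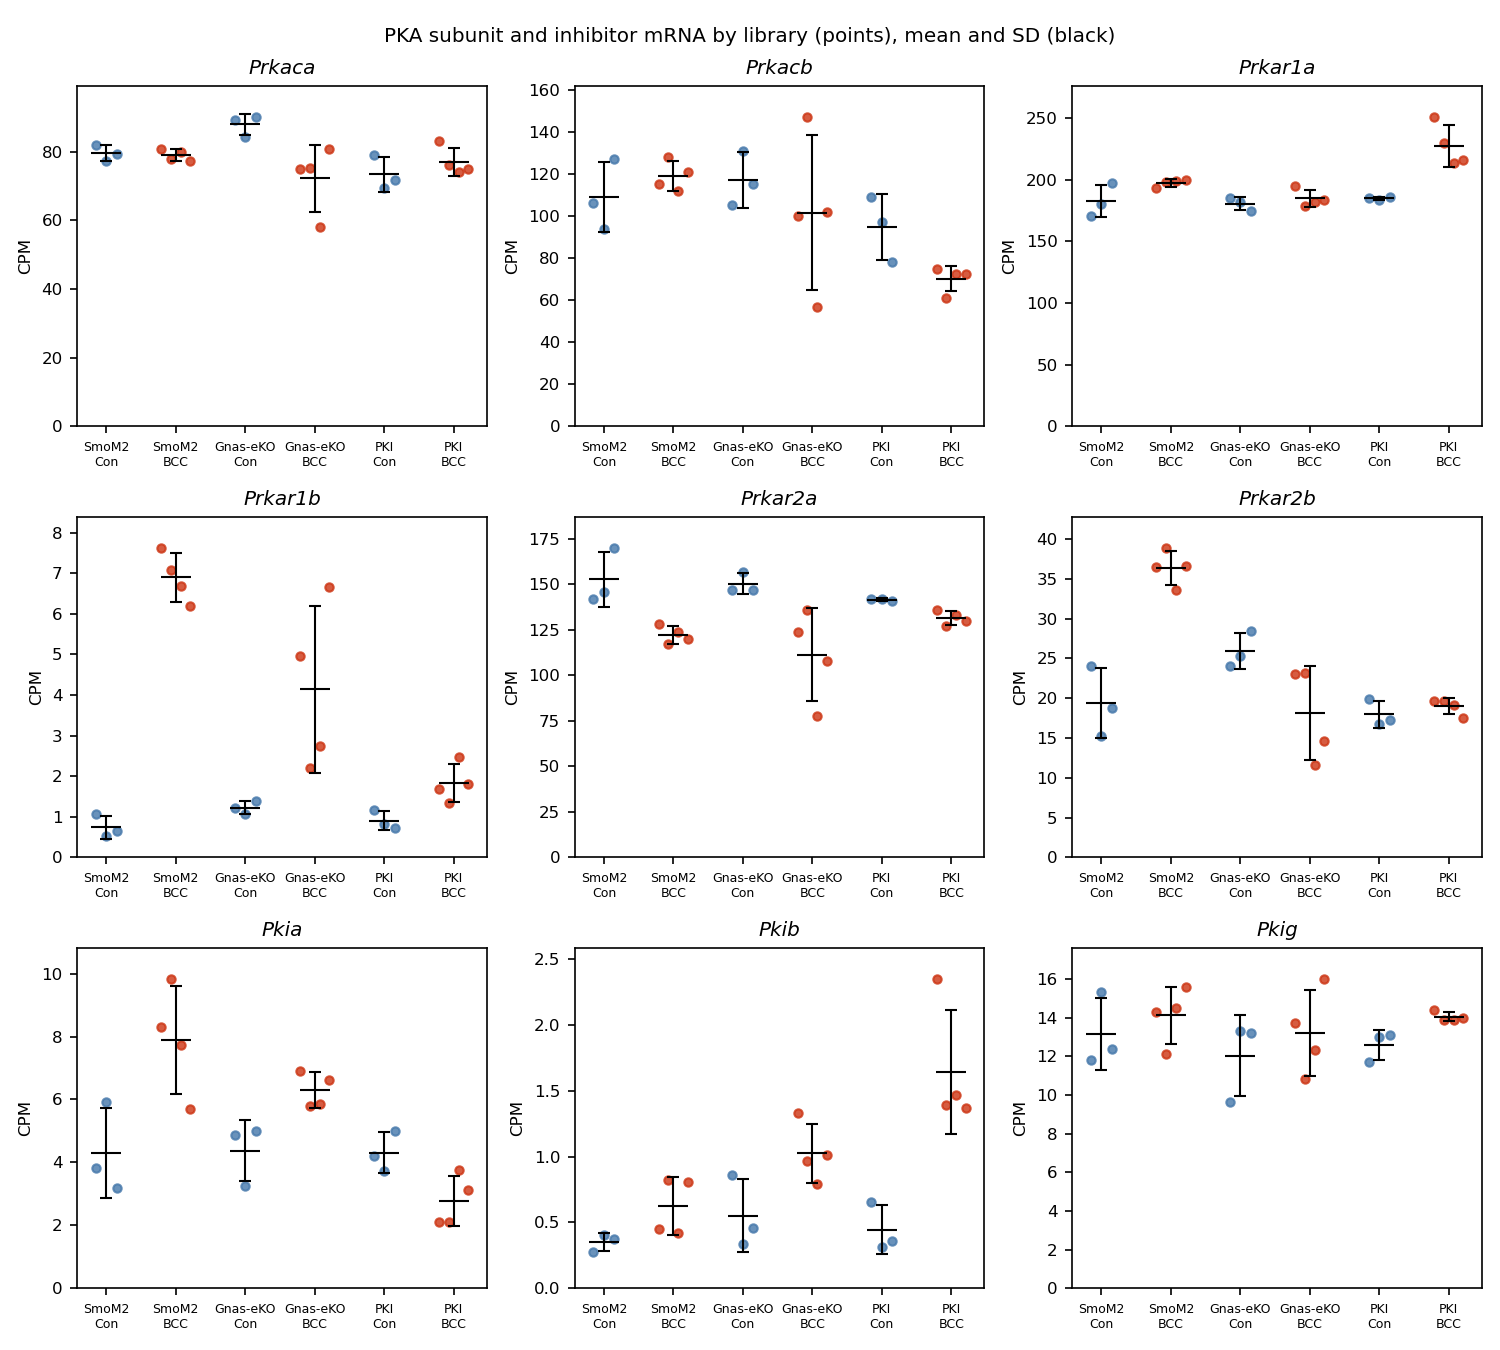
Level in CPM (vertical axis, linear, from 0) of each of the 9 PKA genes in the 21 libraries, by model and condition; points are libraries and bars are mean and SD (n = 3 Con, n = 4 BCC). Prkar1b in SmoM2 BCC (6.19 to 7.62) lies clear of its Con (0.517 to 1.06), while Prkaca in SmoM2 overlaps.

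In control epidermis the PKA message per kilobase of merged exons was made up mainly of Prkar1a, Prkaca and Prkar2a. Per kilobase of merged exons, which allows genes to be compared, the mean Con level was 41.7 to 42.8 CPM per kb for Prkar1a over the 3 models, 29.5 to 35.3 for Prkaca and 22.2 to 23.9 for Prkar2a. Prkacb followed at 10.8 to 13.3, Prkar2b at 4.92 to 7.1, Pkig at 3.01 to 3.3 and Pkia at 1.16 in SmoM2 and PKI. Prkar1b (0.194 to 0.32) and Pkib (0.0298 to 0.0468) were lowest. On this scale neighbours in the order did not overlap in any of the 9 Con libraries: the lowest Prkaca level (27.9) lay above the highest Prkar2a level (26.6), the closest pair by ratio.

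In SmoM2, 4 of 8 tested members changed (edgeR quasi-likelihood test, Benjamini-Hochberg adjusted p under 0.05), 3 higher and 1 lower in BCC, against 29.7% of the 16370 genes tested (16.2% higher and 13.5% lower). In PKI, 4 of 9 changed, 3 higher and 1 lower, against 34.5% of 16397 genes (18.7% higher and 15.8% lower). In Gnas-eKO, 0 of 9 changed by that test, against 1.63% of 16409 genes. There the unadjusted p was under 0.05 for 2 members (19.6% of genes), while DESeq2's Wald test called 1 member (1535 genes in all) and the joint fit of all 21 libraries called 3 (2644 genes). Leaving out 1 library moved the 267 genes called in Gnas-eKO to between 0 (without Con replicate 1 or 2) and 1910 (without BCC replicate 2), and the members called to 1 at most. Over the tested members the median log2 change was 0.14 for SmoM2 (all genes 0.00054), 0.056 for Gnas-eKO (0.02) and 0.094 for PKI (-0.0012). With so few genes, the members' shares of 50% and 44.4% are not read as a result about the family.

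**Figure D2:**
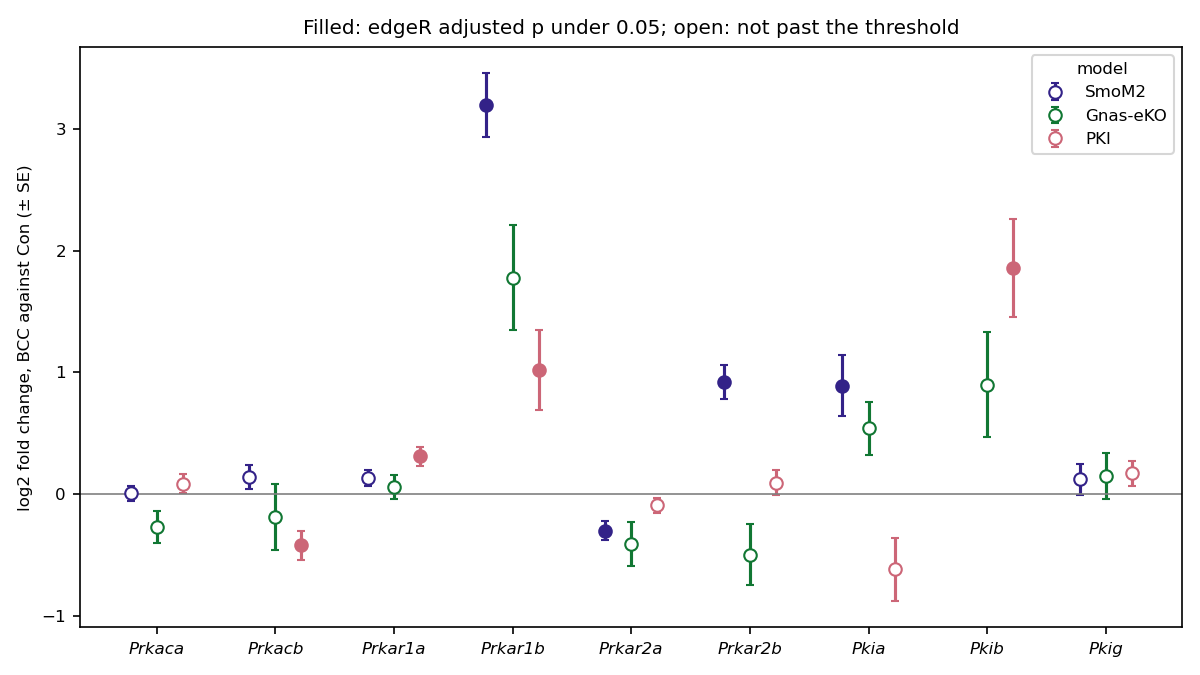
Log2 fold change of BCC against Con (vertical axis) for each member and model, with SE as bars; filled points passed the adjusted p of 0.05 and open points did not, and Pkib in SmoM2 was not tested. The largest value is 3.20 for Prkar1b in SmoM2.

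Of the catalytic subunits, which carry the kinase activity, Prkacb was lower in PKI BCC and Prkaca was called in no model. Prkacb, the beta catalytic subunit, was 109, 97.2 and 78 CPM in PKI Con and 74.7, 61.2, 72.3 and 72.4 in PKI BCC. All 4 BCC libraries lay below all 3 Con libraries, though the highest BCC value was close to the lowest Con value. It fell by 0.42 on the log2 scale (SE 0.12, edgeR quasi-likelihood adjusted p = 0.0212, n = 3 and 4). The call was lost without Con replicate 1, Con replicate 2 or BCC replicate 2 (adjusted p up to 0.0822), and in a joint fit of all 21 libraries (0.113).

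In SmoM2 Prkacb was 106, 93.9 and 127 CPM in Con and 115, 128, 112 and 121 in BCC, and the groups overlapped (log2 change 0.14, SE 0.10, edgeR adjusted p = 0.323). Whether it passed depended on the Con libraries: the SmoM2 estimate was 0.26 without Con replicate 3, where it passed (edgeR adjusted p = 0.0423), and 0.044 without Con replicate 2. In Gnas-eKO BCC it ranged from 56.7 in replicate 3 to 147 in replicate 2, with Con at 105 to 131 (log2 change -0.19, SE 0.27, edgeR adjusted p = 0.756). Without BCC replicate 3 the Gnas-eKO estimate was 0.011, so its sign rests on that library.

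Prkaca, the alpha catalytic subunit and the more abundant of the pair per kb, was level in SmoM2 at 82, 77.4 and 79.4 CPM in Con and 80.8, 77.8, 80 and 77.3 in BCC. In PKI it was 69.5 to 79 in Con and 74.1 to 83.1 in BCC, and the groups overlapped. In Gnas-eKO it was 89.3, 84.4 and 90.1 in Con and 74.8, 75.1, 58.1 and 80.7 in BCC, so every BCC library lay below every Con library. The Gnas-eKO difference (log2 change -0.27, SE 0.13) had an edgeR adjusted p of 0.293 and passed only in the joint fit of 21 libraries (0.0399). In SmoM2 the log2 change of 0.0047 (SE 0.059) was near 0 and took either sign across the alternatives.

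Prkar1a, the type I alpha regulatory subunit and the most abundant PKA message per kb, was higher in PKI BCC. It was 185, 184 and 186 CPM in Con and 251, 230, 214 and 216 in BCC, with no overlap. Prkar1a rose by 0.31 on the log2 scale (SE 0.078, edgeR adjusted p = 0.013), and it passed under all 6 alternatives and with each of the 7 libraries left out. In SmoM2 Con ranged 171 to 197 and BCC 193 to 200 (log2 change 0.13, SE 0.066, edgeR adjusted p = 0.178), and in Gnas-eKO Con ranged 175 to 185 and BCC 179 to 195 (0.056, SE 0.10, 0.811).

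Prkar1b, the type I beta subunit, known mainly from brain, had the largest change of the family. In SmoM2 it was 1.06, 0.517 and 0.649 CPM in Con and 7.62, 7.08, 6.68 and 6.19 in BCC. Even the lowest BCC library was above the highest Con library. Prkar1b rose by 3.20 on the log2 scale (SE 0.26, 9.19-fold, edgeR adjusted p = 1.86e-05), and it passed in all 7 alternatives and with each library left out. With the authors' normalized values on a log2(value + 0.5) scale the change was 6.02-fold.

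In Gnas-eKO Prkar1b was 1.22, 1.06 and 1.38 CPM in Con and 4.95, 2.2, 2.75 and 6.66 in BCC. The 4 BCC libraries all exceeded Con, with replicates 1 and 4 well above replicates 2 and 3. The estimate was 1.78 on the log2 scale (SE 0.43), with an edgeR adjusted p of 0.0803. It passed by DESeq2's Wald test (0.00351), in the joint fit (0.00193) and without BCC replicate 2 (1.99, adjusted p = 0.0148).

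In PKI Prkar1b was 1.16, 0.823 and 0.722 CPM in Con and 1.69, 1.34, 2.46 and 1.81 in BCC. The groups did not overlap, but the gap was narrow. The log2 change was 1.02 (SE 0.33, edgeR adjusted p = 0.039), and it passed in 4 of 7 alternatives and in 2 of 7 with a library left out (adjusted p up to 0.126). It was lost with no filter on low counts (0.0508), with the replicate block (0.0745), and without Con replicate 2 or 3 or BCC replicate 1, 3 or 4.

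Prkar1b shares 341 exon bases with the non-coding gene Gm15672 on the same strand, so reads there cannot be assigned to either with certainty. Gm15672 counts were 16.5 to 18 in SmoM2 Con and 21 to 33 in SmoM2 BCC, and Prkar1b counts were 9.49 to 23 and 123 to 168. With both genes' counts summed, the SmoM2 change was 2.29 (edgeR adjusted p = 1.64e-05) and the PKI change 0.77 (0.0516). In Gnas-eKO the summed counts gave 1.43 (edgeR adjusted p = 0.0729), against 1.78 for Prkar1b alone. The summed counts were chosen as a check after seeing the data.

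Prkar2a, the type II alpha subunit and the more abundant type II message, was lower in SmoM2 BCC. It was 142, 146 and 170 CPM in Con and 128, 117, 124 and 120 in BCC, with no overlap. It fell by 0.30 on the log2 scale (SE 0.075, edgeR adjusted p = 0.0133), passed with each library left out, and did not pass with a replicate block (0.0594) or in the joint fit (0.0696).

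In Gnas-eKO Prkar2a was 147, 157 and 147 CPM in Con and 124, 136, 77.4 and 108 in BCC, with every BCC library below Con and replicate 3 lowest. The log2 change was -0.41 (SE 0.18, edgeR adjusted p = 0.256), and it passed in the joint fit (0.0247). In PKI it was 141 to 142 in Con and 127 to 136 in BCC, again without overlap, with a log2 change of -0.091 (SE 0.061, edgeR adjusted p = 0.282).

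Prkar2b, the type II beta subunit, was higher in SmoM2 BCC. It was 24.1, 15.3 and 18.8 CPM in Con and 36.5, 38.9, 33.6 and 36.6 in BCC, with no overlap. Prkar2b rose by 0.92 on the log2 scale (SE 0.14, 1.89-fold, edgeR adjusted p = 0.00103), which passed in all 6 alternatives and with each library left out.

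In Gnas-eKO Prkar2b was 24, 25.3 and 28.4 CPM in Con and 23, 23.2, 11.6 and 14.6 in BCC, below Con in every BCC library, with replicates 3 and 4 lowest. The log2 change was -0.50 (SE 0.25, edgeR adjusted p = 0.309). In PKI it was 16.7 to 19.9 in Con and 17.5 to 19.7 in BCC and the groups overlapped (log2 change 0.094, SE 0.10, edgeR adjusted p = 0.515).

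Pkia, the alpha PKI peptide, rose in SmoM2. It was 3.81, 5.92 and 3.19 CPM in Con and 8.3, 9.83, 7.74 and 5.69 in BCC, with BCC replicate 4 inside the Con range. Pkia rose by 0.89 on the log2 scale (SE 0.25, edgeR adjusted p = 0.0245). It passed in all 6 alternatives, but was lost without Con replicate 1, Con replicate 3, BCC replicate 1 or BCC replicate 2 (adjusted p up to 0.0749).

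In Gnas-eKO Pkia was 4.86, 3.25 and 5.01 CPM in Con and 6.92, 5.78, 5.87 and 6.62 in BCC, all BCC above Con (log2 change 0.54, SE 0.22, edgeR adjusted p = 0.229). In PKI it was 4.2, 3.73 and 5 in Con and 2.1, 2.12, 3.75 and 3.13 in BCC, overlapping at BCC replicate 3 (log2 change -0.62, SE 0.26, edgeR adjusted p = 0.0956). The threshold was met under the replicate block (-0.72, edgeR adjusted p = 0.0494) and without BCC replicate 3 (-0.80, 0.0465).

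Pkib, the beta PKI peptide, was close to the detection limit in Con and higher in PKI BCC. The PKI Con libraries had 0.658, 0.316 and 0.361 CPM and the BCC libraries 2.35, 1.39, 1.47 and 1.37, from 5 to 13 and 25 to 46 counts, with no overlap. Pkib rose by 1.86 on the log2 scale (SE 0.40, edgeR adjusted p = 0.00644), and it passed under all 6 alternatives and with each library left out. With the authors' normalized values on a log2(value + 0.5) scale, which understates changes of low genes, the change was 2.27-fold, against 3.64-fold. In SmoM2 Pkib did not pass the filter on low counts and was not tested, at 0.276 to 0.402 CPM in Con and 0.417 to 0.819 in BCC. In Gnas-eKO it was 0.336 to 0.861 in Con and 0.794 to 1.33 in BCC (log2 change 0.90, SE 0.43, edgeR adjusted p = 0.297). In PKI and Gnas-eKO it passed the filter on low counts mainly through the BCC libraries, where counts were higher. With no such filter the PKI change was 1.87 (edgeR adjusted p = 0.00601).

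Pkig, the gamma PKI peptide and the most abundant of the 3 inhibitors per kb, was not called in any model. Its log2 changes of 0.12 (SE 0.13) for SmoM2, 0.15 (SE 0.19) for Gnas-eKO and 0.17 (SE 0.10) for PKI did not pass. In PKI every BCC library (13.9 to 14.4 CPM) lay above Con (11.7 to 13.1), with an edgeR adjusted p of 0.234.

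BCC and Con libraries did not overlap for 4 of 9 members in SmoM2 (all genes 38.9%), counting the untested Pkib, for 5 in Gnas-eKO (19.8%) and for 6 in PKI (43.2%). All BCC libraries lay above Con for 3, 2 and 4 of these (19.7%, 9.73% and 22.4% of genes) and below Con for 1, 3 and 2 (19.2%, 10.1% and 20.8%). In Gnas-eKO these were Prkar1b and Pkia above Con and Prkaca, Prkar2a and Prkar2b below it.

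The BCC effects of different models were then compared by interaction contrasts. Between PKI and SmoM2, 4 of 9 members differed (edgeR quasi-likelihood adjusted p under 0.05, 24.9% of 17261 genes), all lower in PKI (12.3% of genes). These were Prkar1b (-2.19, SE 0.40, adjusted p = 0.00146), Prkar2b (-0.83, SE 0.18, 0.00426), Pkia (-1.51, SE 0.37, 0.00939) and Prkacb (-0.56, SE 0.17, 0.0231). The first 3 passed in all 5 alternatives and with each of 14 libraries left out. Prkacb did not pass with the replicate block (0.0669), in the joint fit (0.191) or in 3 of 14 fits with a library left out, those without SmoM2 Con replicate 2, PKI Con replicate 1 or PKI Con replicate 2 (adjusted p up to 0.069).

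Between PKI and Gnas-eKO, 1 of 9 differed (9.06% of 17254 genes, 4.57% in its direction, lower in PKI): Pkia, by -1.17 (SE 0.33, edgeR adjusted p = 0.0446), which passed in 3 of 14 fits with a library left out and did not pass with no filter (0.0688) or with the replicate block (0.067). Between Gnas-eKO and SmoM2, 0 of 9 passed (0.175% of 17151 genes). The unadjusted p was under 0.05 for Prkar1b and Prkar2b, beside 8.74% of genes. Prkar1b differed by -1.42 (SE 0.51, edgeR unadjusted p = 0.0146, adjusted p = 0.402). Prkar2b came closest, at -1.41 (SE 0.30, unadjusted p = 0.000368, edgeR adjusted p = 0.102), and it passed by DESeq2's Wald test (0.00322), in the joint fit (0.0243) and without Gnas-eKO BCC replicate 2 (0.039).

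**Figure D3:**
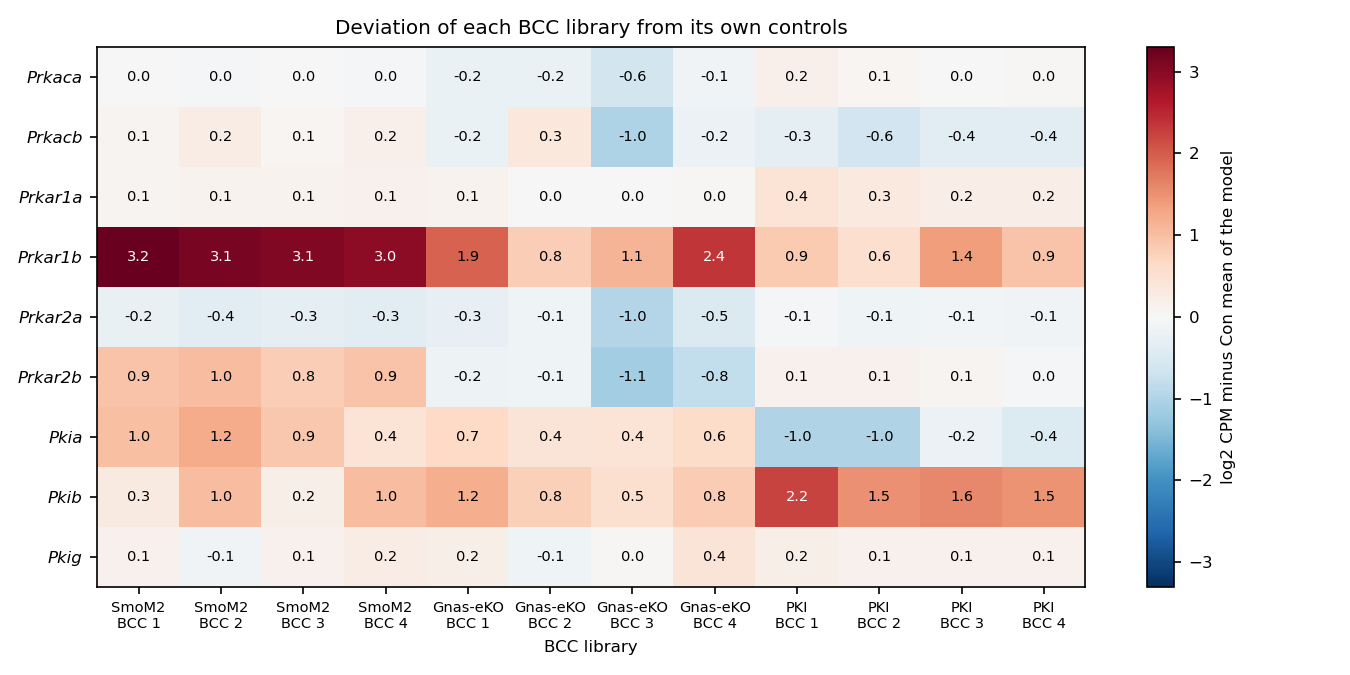
Heat map of the deviation of each member (rows) in the 12 BCC libraries (columns) from the mean of its model's Con libraries, in log2 CPM, with the colour scale giving the sign and size. Prkar1b is above 0 in every BCC library, and Pkig stays between -0.14 and 0.42 in BCC.

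The composition of the PKA message pool was described on CPM per kb, without a test. The type I share of regulatory message was 59.2% ± 1.36 in SmoM2 Con and 62% ± 0.784 in BCC, against 57.8% ± 1.27 in the Gnas-eKO Con mice and 66.5% ± 5.7 in their BCC counterparts (SD, n = 3 and 4). PKI had 61.3% ± 0.444 without and 67.2% ± 1.27 with tumours. In each model all BCC libraries lay above Con, and the sign was the same for every length choice.

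The Prkaca share of catalytic message was 73.3% ± 2.7 in PKI Con and 79.5% ± 1.44 in PKI BCC, with no overlap, while in SmoM2 (72.1% and 70.1%) and Gnas-eKO (72.6% and 72.2%) the groups overlapped. The Con range of this share, 68.8 to 76.4% on merged exons, was 54.5 to 63.7% on the longest transcript and 38.5 to 47.9% with no length correction, so Prkaca was the larger message in Con on either length and the smaller without the correction. The Prkar2b share of type II message was 18.2% ± 4.11 in SmoM2 Con and 34.2% ± 1.98 in SmoM2 BCC, with no overlap. It was 23.1% ± 1.8 and 21.8% ± 2.38 for Gnas-eKO and 18.1% ± 1.35 and 20.1% ± 0.922 for PKI, with overlap in both.

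The ratio of regulatory to catalytic message was 1.75 ± 0.131 in PKI Con and 2.03 ± 0.0545 in PKI BCC with no overlap, and 1.5 and 1.67 in Gnas-eKO with overlap. In SmoM2 it was 1.61 and 1.69, and the difference of 0.0777 turned to -0.0525 without a length correction. Inhibitor message per 100 catalytic averaged 10.2 in SmoM2 Con and 12.6 in SmoM2 BCC, with overlap. For Gnas-eKO the averages were 8.7 (Con) and 12.9 (BCC), and for PKI 10.9 (Con) and 11.3 (BCC), also with overlap.

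**Figure D4:**
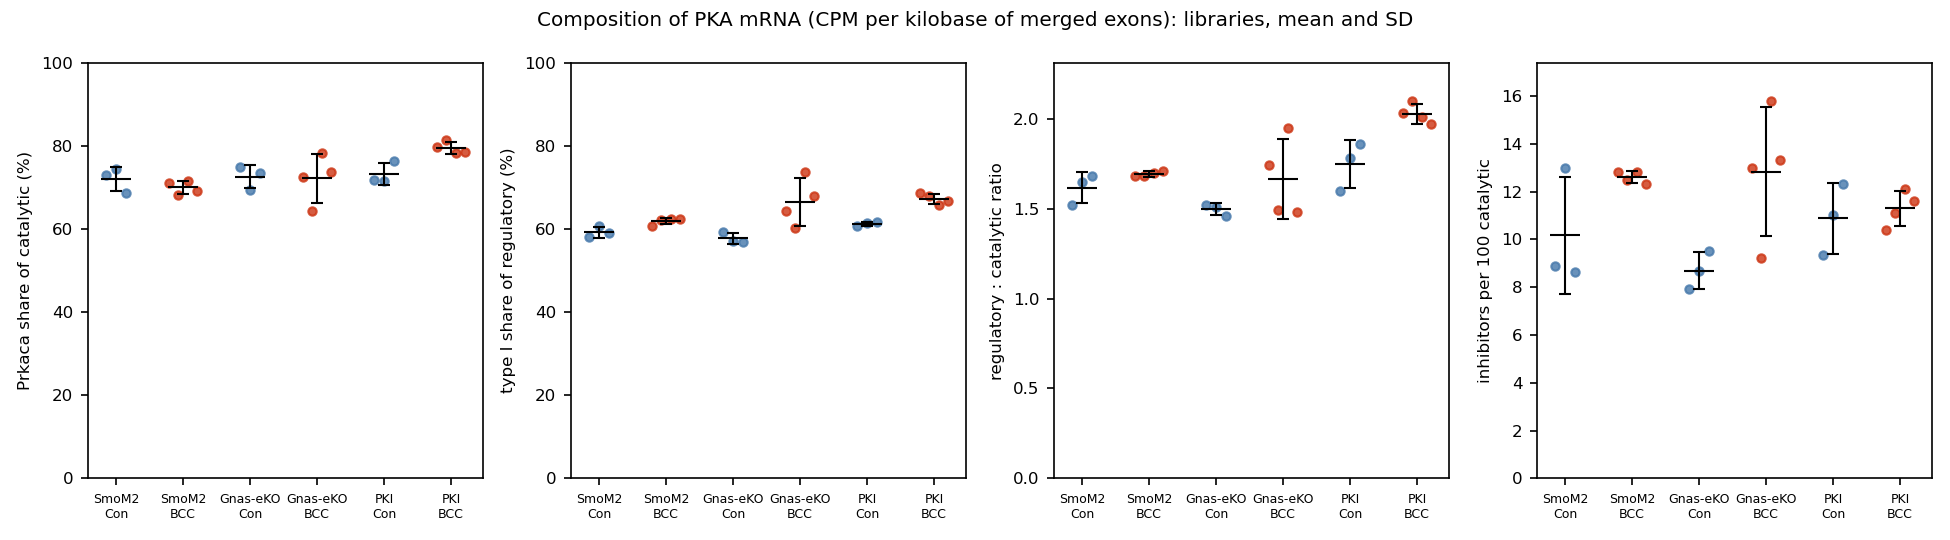
Composition of the PKA message pool per library, from CPM per kilobase of merged exons: Prkaca share of catalytic message (%), type I share of regulatory message (%), regulatory to catalytic ratio, and inhibitor message per 100 catalytic; points are libraries, bars are mean and SD. The type I share is higher in all BCC libraries than in Con of the same model.

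Over the 21 libraries, with each model's Con mean subtracted from log2 CPM, the genes most like a member were found among 10648 or 10649 genes. Prkar1b was most like Smo (Pearson r = 0.982) and Tulp3 (0.967). The points share the large difference between BCC and Con libraries, and r is given as a description. The labels do not say whether Smo counts in SmoM2 BCC include reads of the introduced form. Smo itself was 103 ± 8.53 CPM in SmoM2 Con and 299 ± 12.4 in BCC. Its level went from 109 ± 3.87 (Con) to 193 ± 39 (BCC) for Gnas-eKO and from 104 ± 7.78 to 149 ± 12.5 for PKI. Prkar2a was most like Ilrun (0.945) and Trpc4ap (0.945), Prkar2b like Itm2c (0.895) and Msh6 (0.891), and Pkia like Zfr2 (0.928). For Prkacb the nearest were Cant1 (0.927) and Dgcr2 (0.909), for Prkar1a Gm9531 (0.921) and Me2 (0.918), and for Pkib Ino80e (0.889) and Fkbp1a (0.885). Among members, Prkar1a and Pkib had r = 0.83 and Prkaca and Prkar2a 0.73.

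**Figure D5:**
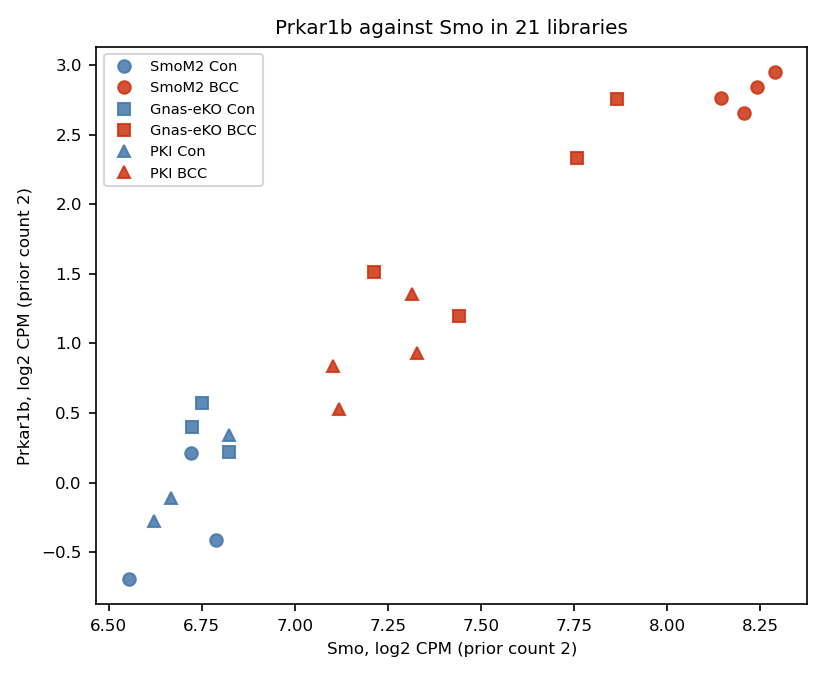
Prkar1b against Smo in 21 libraries, both in log2 CPM (prior count 2); circles are SmoM2, squares Gnas-eKO and triangles PKI, blue for Con and red for BCC. The SmoM2 BCC libraries are highest in Smo (283 to 313 CPM) and lie at 6.19 to 7.62 CPM in Prkar1b, a range that also holds Gnas-eKO BCC replicate 4 at 6.66.

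The pathway around PKA was read from lists of anchoring proteins, other regulators, cAMP enzymes and CREB-related genes. Of the A-kinase anchoring proteins, which tether PKA, 8 of 25 tested changed in SmoM2 (4 higher and 4 lower), 2 of 26 in Gnas-eKO and 9 of 26 in PKI (5 higher and 4 lower), with list medians of 0.07, 0.20 and -0.014. The shares of 32% in SmoM2 and 34.6% in PKI are near those of all tested genes (29.7% and 34.5%), and the Gnas-eKO share was 7.69% beside 1.63%. Pakap was higher in all 3 models, with log2 changes of 2.79 (SE 0.13), 2.29 (SE 0.33) and 1.37 (SE 0.16). The Gnas-eKO calls do not hold without Con replicate 1 or Con replicate 2, where 0 genes passed in that model. Map2 fell by 1.06 in SmoM2 and fell by 1.23 in PKI. Gpr161, a Hedgehog-linked receptor that binds PKA, rose by 1.02 in SmoM2 (33.8 ± 7.8 to 67.9 ± 4.58 CPM), and Mtcl1 was higher in Gnas-eKO (2.40, SE 0.46) and PKI (2.27, SE 0.40).

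Of cAMP synthesis and breakdown genes, 8 of 13 changed in SmoM2 (6 higher and 2 lower), 0 of 13 in Gnas-eKO and 7 of 13 in PKI (2 higher and 5 lower), with medians of 0.61, 0.21 and -0.15. Over all tested genes the called shares were 29.7% (SmoM2), 1.63% (Gnas-eKO) and 34.5% (PKI), beside 61.5%, 0% and 53.8% of this list, and the counts below are to be read against them. Adenylyl cyclases, which make cAMP, went both ways: in PKI Adcy6 fell by 1.08 and Adcy9 fell by 0.91, while Adcy7 rose from 6.13 ± 3.41 CPM (SD, n = 3) to 17.3 ± 2.7 (n = 4, edgeR adjusted p = 0.00868). In SmoM2 Adcy9 fell by 0.54 and Adcy7 rose by 1.16. Of other PKA regulators and cAMP receptors, 5 of 9 changed in SmoM2 (2 higher and 3 lower) and 5 of 9 in PKI (1 higher and 4 lower), but 0 of 9 passed for Gnas-eKO, with list medians of -0.052, -0.20 and -0.38. Rapgef3, a cAMP-activated exchange factor, fell by 1.16 in SmoM2 and fell by 2.74 in PKI, whereas Rapgef4, another such factor, rose by 0.56 in SmoM2. Gnas was higher in BCC of both models (0.68 for SmoM2, 0.25 for PKI), and Popdc3, a cAMP-binding membrane protein, fell by 1.69 and fell by 1.00. Of the CREB family and coactivators, 2 of 11 changed in SmoM2 (both higher) and 4 of 11 in PKI (1 higher and 3 lower), while 0 of 11 passed for Gnas-eKO, with medians of 0.074, -0.017 and 0.072. These shares, 18.2% and 36.4%, lie below and near those of all genes. Of cAMP-CREB targets, 3 of 19 were higher in SmoM2 BCC and 9 of 20 changed with PKI tumours (7 higher and 2 lower), while 0 of 19 passed for Gnas-eKO. The list medians were 0.40, 0.68 and 0.41 in that order. Among them Rgs2, a regulator of G protein signalling, rose by 1.21 in PKI (SE 0.27, edgeR adjusted p = 0.00773). Sik1, a kinase that restrains CREB coactivators, and the clock gene Per1 went the other way and fell by 1.00 and fell by 0.78.

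Markers of keratinocytes and of other cells moved with the same contrasts. Keratinocyte markers summed to 63500 to 80000 CPM in SmoM2 Con and 43300 to 58500 in SmoM2 BCC, with 7 of 10 lower and 1 higher. For Gnas-eKO the sums were 63500 to 74900 (Con) and 34500 to 56500 (BCC), without overlap and with 0 of 10 called. For PKI they were 57900 to 76600 and 50900 to 80400, with 4 of 10 lower and 1 higher. The part of this shift in the members' changes was not tested. The summed level of 8 leukocyte markers lay between 24.1 and 37.5 CPM without tumours in PKI and between 85 and 153 with them, and 7 of 8 were higher there. In SmoM2 the same sum was 26.5 to 35 CPM in Con and 19.3 to 24.8 in BCC, with 1 of 8 lower. The 3 Langerhans cell markers summed to 34.7 to 124 CPM in PKI Con and 281 to 592 in BCC, and all 3 were higher. Fibroblast markers summed to 17.2 to 39.8 CPM in SmoM2 Con and 388 to 524 in BCC, with 2 of 6 higher, and to 15.8 to 43.4 and 84.4 to 145 in PKI, with 3 of 6 higher. In Gnas-eKO they summed to 16 to 27.4 CPM in Con and 93.3 to 578 in BCC, without overlap and with 1 of 6 higher. Their part in the Prkar1a, Prkacb and Pkib changes of PKI, in the Prkar1b and Prkar2b changes of SmoM2 and in the member values of Gnas-eKO was not tested. Neuron and Schwann cell markers summed to 23.6 to 35.8 CPM in SmoM2 Con and 9.39 to 12.7 in SmoM2 BCC, with 1 of 4 tested higher and 1 lower. In Gnas-eKO they summed to 19.4 to 33.8 (Con) and 8.57 to 18.4 (BCC), also without overlap and with 0 of 4 called. Their part in the Prkar1b values of SmoM2 and Gnas-eKO was not tested. The adipocyte markers stayed at or under 1.83 CPM in all groups. Melanocyte markers summed to 153 to 201 CPM in PKI Con and 72.2 to 117 in BCC, with 4 of 5 lower. In SmoM2 their sums overlapped (115 to 204 and 109 to 159), with 2 of 5 lower. Neutrophil markers, which include S100a8 and S100a9, genes that stressed keratinocytes also express, summed to 2.29 to 12 CPM in PKI Con and 915 to 3560 in BCC, with 3 of 3 tested higher. In SmoM2 they summed to 14 to 101 (Con) and 382 to 1010 (BCC), with 2 of 3 higher, and in Gnas-eKO to 14.6 to 74.7 and 54.4 to 1970, with 0 of 3 called. The endothelial markers reached at most 4.99 CPM, Merkel cell markers 2.18 and skeletal muscle markers 0.774 in any library.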

How the data were processed

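Bulk RNA from tail keratinocytes was sequenced after a stranded mRNA ligation preparation, per the labels' protocols. The submitters' processing notes name bcl2fastq 2.20, cutadapt 1.18, STAR 2.7.0f, Partek and the build mm10; the counting tool and whether counting used the strand are not given in the sources used here. The authors deposited estimated counts per gene without normalization, 33.1% of them not whole, and the authors' TMM-normalized signal, used only in an alternative. No gene in the deposited table sums to fewer than 10 counts.

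Rounded estimates went into edgeR 4.0.16 under R 4.3.3 (filterByExpr by group, TMM, robust quasi-likelihood test, Benjamini-Hochberg adjustment over all tested genes, threshold 0.05), within the 7 libraries of a model, and for differences between models as an interaction on 14 libraries. DESeq2 1.42.0 and limma 3.58.1 were alternatives. SE is the absolute log2 fold change over the square root of F. CPM use TMM library sizes, and per-kb values use merged exons of GENCODE M21 (GRCm38).

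All 9 members are named. Of each pathway list, up to 2 called genes with the highest and 2 with the lowest change per model are eligible if BCC and Con do not overlap and mean log2 CPM reaches 2. For each called member, the 2 most alike genes are named, among genes whose mean log2 CPM reaches 3. Not every gene that these rules select is reported here. Members and lists were chosen with earlier results of these data known. The table headers give each library its own animal code, and p-values measure the spread between these libraries. Every same-group pair of libraries differed by more than sampling noise.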

Additional observations from a re-analysis of the deposited data

Results flagged for a closer look

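On the log2 CPM scale, Prkacb in PKI BCC replicate 2 (61.2 CPM) and Pkib in PKI BCC replicate 1 (2.35 CPM) lay far from the other libraries of their group, with a gap of 0.836 and 0.868 of the group's range, past Dixon's critical value for 4 libraries. On CPM the gaps were 0.822 and 0.898, and Prkacb did not pass. Of 45 groups tested, over members and composition measures, 2 stood out, and chance gives about 1 in 20. The composition measures are built from the same members, so these groups are not independent.

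Differences between models passed the edgeR quasi-likelihood interaction test (Benjamini-Hochberg adjusted) for Prkacb (-0.56), Prkar1b (-2.19), Prkar2b (-0.83) and Pkia (-1.51), each as PKI minus SmoM2, and for Pkia (-1.17) as PKI minus Gnas-eKO. Model, batch and day of sampling cannot be told apart in these differences.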

How the results depend on the processing

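Of the members' changes against Con under the alternatives that kept all libraries, 145 of 159 values kept direction and side of the threshold, 6 were weaker, 5 stronger and 3 reversed; for differences between models it was 128 of 135, with 4 weaker, 2 stronger and 1 reversed. The cause of these shifts was not tested. DESeq2's Wald test called 1535 genes and 1 member in Gnas-eKO, 212 genes and 1 member for Gnas-eKO minus SmoM2, and 2389 genes for PKI minus Gnas-eKO. The joint fit called 2644 genes and 3 members in Gnas-eKO, and 66 genes and 1 member for Gnas-eKO minus SmoM2. With no filter on low counts, 0 members were called for PKI minus Gnas-eKO. The Prkaca change in SmoM2 turned to -0.0018 with DESeq2 size factors, -0.0021 with the Wald test and -0.01 in the joint fit.

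Same-numbered BCC and Con libraries deviated together only weakly (r for replicates 1 to 3 of -0.08, -0.10 and -0.11 in SmoM2; for Gnas-eKO 0.02, 0.15 and 0.09; for PKI 0.24, -0.05 and 0.14), so the numbers were not taken to pair them. With the replicate block, 135 genes were called in Gnas-eKO, 925 genes and 0 members for PKI minus Gnas-eKO, and Pkig in Gnas-eKO minus SmoM2 turned to -0.007. Pkia in PKI passed with the block (edgeR adjusted p = 0.0494).

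With 1 library left out at a time, Gnas-eKO had 0 to 1910 genes and 0 to 1 members called, the upper counts without BCC replicate 2, and PKI had 2 to 4 members. Gnas-eKO minus SmoM2 had 14 to 79 genes and 0 to 1 members, and PKI minus Gnas-eKO had 673 to 2512 genes and 0 to 1 members. Estimates that changed sign ranged from -0.017 to 0.023 for Prkaca in SmoM2 and from -0.41 to 0.011 for Prkacb in Gnas-eKO. For Gnas-eKO minus SmoM2 they were -0.18 to 0.54 for Pkib, -0.096 to 0.12 for Pkig and -0.22 to 0.034 for Prkar2a. Pkig also ranged from -0.068 to 0.13 for PKI minus SmoM2 and from -0.067 to 0.16 for PKI minus Gnas-eKO. Depth limits Pkib most, with 5 to 17 counts per Con library.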
